A study of Rattus norvegicus with 13 samples.

Results

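The interaction of ethanol with energy supply asks whether the liver's response to dietary ethanol depends on how much energy the animal receives. It was computed over all 13 arrays of the series, grouped by the sample titles, as the ethanol effect at 160 kcal (EtOH-160 minus TEN-160) minus the ethanol effect at 220 kcal (EtOH-220 minus TEN-220). Hepatic RNA of time-impregnated female Sprague Dawley rats was hybridised to 1 rat expression array per sample. EtOH-160 (n = 4) were undernourished rats given 12 g ethanol per kg each day in a diet that supplied 160 kcal a day per kg raised to the power 0.75. TEN-160 (n = 3) were undernourished controls with 160 kcal and no ethanol. EtOH-220 (n = 3) were rats given the same ethanol dose in a diet of 220 kcal. TEN-220 (n = 3) were normally fed controls with 220 kcal and no ethanol. All groups were pregnant animals of one outbred strain, so no group shows the response of males or of females that were not pregnant. Neither the day of gestation nor any pooling of RNA across animals is known from the sources used here. What the p-values measure is thus the spread between these samples only.

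The liver oxidises ethanol through alcohol dehydrogenases, the cytochrome P450 enzyme CYP2E1 and catalase, and the acetaldehyde that forms is oxidised by aldehyde dehydrogenases. Energy restriction and feeding act on the same organ through insulin, glucagon and glucocorticoids, which set the balance between fatty acid synthesis on one side and glucose production, amino acid breakdown and fatty acid oxidation on the other. In a design with 2 diets and 2 energy supplies, an interaction above 0 arises when EtOH-160 or TEN-220 is high, or when TEN-160 or EtOH-220 is low, so the value does not tell by itself which group differs. For each probe set, a group was therefore said to stand apart when all its arrays lay on one side of every array of the other 3 groups and the gap from its mean to the nearest group mean was at least as wide as the range of those other 3 means.

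The ethanol response differed between the 2 energy supplies for 404 of 5244 tested probe sets (7.7%), which were called at an adjusted p under 0.05 by limma. The interaction was above 0 for 194 of them (3.7% of those tested) and below 0 for 210 (4%). At an unadjusted p under 0.05 there were 1319 probe sets. Of the 404 calls, 321 name 1 gene (299 different genes), 27 name several and 56 name none. Other scalings moved the division between the directions. Above and below 0 were 211 and 160 calls after quantile normalization, 449 and 109 after centring each array on its median log2 signal, and 4 and 61 with the values as deposited. As deposited, TEN-220 replicate 1 stayed unscaled, with a 2%-trimmed mean signal of 133 beside about 501 on the other 12 arrays. The median interaction of all tested probe sets was -0.07 on the log2 scale, and it was 0.04, 0.22 and -0.71 under those scalings. All 404 calls kept their sign under each of the 3. Median centring and the values as deposited shift all interactions alike, apart from values at the floor. That shift is smaller than the smallest call (0.65 in size above 0 and 0.67 below), so these 2 scalings could not turn a sign.

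Most called ethanol effects were those of undernourished rats. At 160 kcal the ethanol effect by itself was called for 1164 probe sets (22.2%), 530 higher (10.1%) and 634 lower (12.1%). At 220 kcal it was called for 0 higher and 1 lower (0.0191%), with 542 probe sets at an unadjusted p under 0.05. The ethanol effect was larger in size at 160 kcal for 358 of the 404 interaction calls and larger at 220 kcal for 46. The ethanol effects had opposite signs in 344. The calls were selected for a difference between these same effects, which by itself favours opposite signs and moves their medians apart. Neither the share of opposite signs nor that of larger effects at 160 kcal was determined over all tested probe sets. With 1 probe set called at 220 kcal, the sign there was mostly not established, so opposite action of ethanol was not shown. Calls above 0 had a median ethanol effect of 0.97 at 160 kcal and -0.27 at 220 kcal (log2), and calls below 0 had medians of -1.18 and 0.36. Over all tested probe sets these medians were -0.07 and -0.00.

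**Figure D1:**
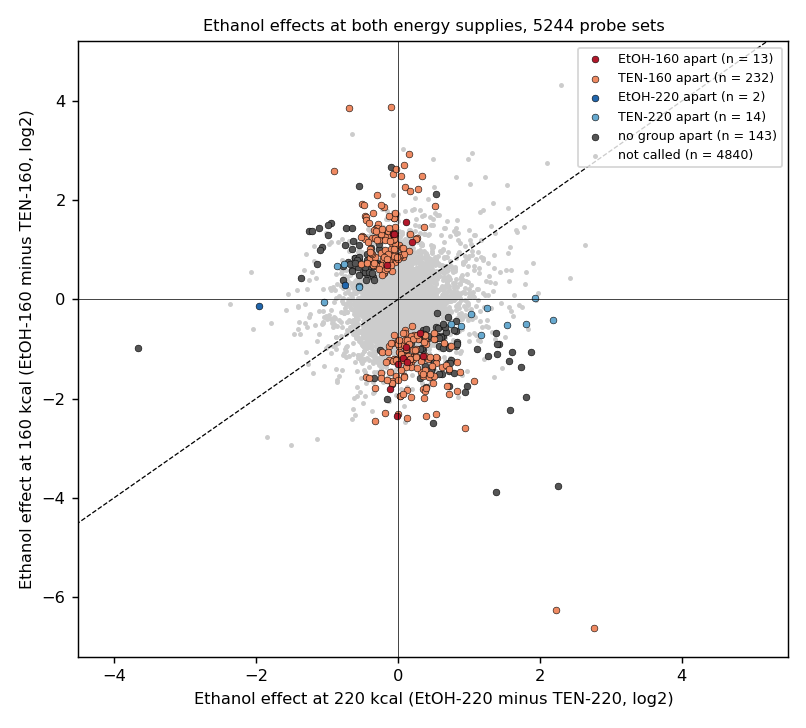
Ethanol effect at 160 kcal (EtOH-160 minus TEN-160, vertical axis) against the ethanol effect at 220 kcal (EtOH-220 minus TEN-220, horizontal axis), both as differences of mean log2 signal, for 5244 probe sets. Coloured points are the 404 interaction calls by the group that stood apart, grey points were not called, and the dashed line marks equal effects. Calls lie away from the line because they were selected for a difference between the effects. Most lie along the vertical axis, where the size of the effect at 160 kcal was the larger in 358 of 404.

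TEN-160, the undernourished rats without ethanol, stood apart for 232 of the 404 calls (57.4%), against 13.6% of all tested probe sets. Its arrays were above the rest in 119 calls and below in 113, forms that 8.07% and 5.57% of all tested probe sets had. EtOH-160 stood apart for 13 calls (3.22%, against 1.32% of all tested), TEN-220 for 14 (3.47%, against 1.56%) and EtOH-220 for 2 (0.495%, against 0.706%). No group met the rule in the remaining 143. Among these, and in a few of the others, EtOH-160 and TEN-220 lay together, with no array overlapping, above TEN-160 and EtOH-220 in 13 calls (14 of all tested, 0.267%) or below them in 9 (15 of all tested, 0.286%). Any group that departs from similar others gives an interaction, and so does this crossed pattern. Selection for a call by itself therefore favours higher shares of these forms than over all tested. The excess beyond that was not tested.

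**Figure D2:**
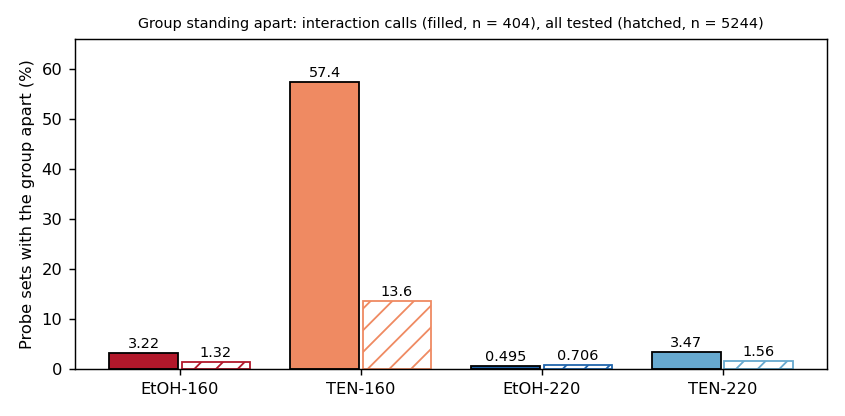
Share of probe sets, in percent, for which each of the 4 groups stood apart, among the 404 interaction calls (filled bars) and among all 5244 tested probe sets (hatched bars). TEN-160 has the tall bars, 57.4% of the calls and 13.6% of all tested. Selection for an interaction call by itself favours probe sets with a group apart.

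Array controls moved with the same groups. The ratio of the GAPDH 3' and 5' control signals, which is higher in degraded RNA, was 1.505 to 1.73 in EtOH-160, 1.03 to 1.24 in TEN-160, 1.04 to 1.47 in EtOH-220 and 1.52 to 2.32 in TEN-220, so EtOH-160 and TEN-220 were high together, in the pattern of the interaction itself. The actin 3'/5' ratios of the groups overlapped. The signal ratio of the spiked bacterial controls BioDn-5 and BioDn-3 was 0.422 to 0.497 in TEN-160 and 0.132 to 0.210 on the other 10 arrays, and the first principal component of the rat probe sets (30.1% of the variance) separated the same 3 arrays. With the GAPDH ratio as a covariate, an alternative added after the data were seen, 0 interactions were called by limma and 376 had an unadjusted p under 0.05. The median SE of an interaction was then 0.665 in place of 0.356 on the log2 scale, and 397 of the 404 calls kept their sign. Among 74 called probe sets of the named genes the interaction with the covariate was a median 76.5% of that without it, smaller by over 1.5 times in 25 and larger by over 1.5 times in 2. The part of these array differences in the results below was not tested beyond this, and TEN-160 cannot be left out of an interaction. Of 8 defining hepatocyte genes 7 were measured, all far above background, with summed signals of 134771 to 172289 in EtOH-160, 173004 to 219683 in TEN-160, 157261 to 174377 in EtOH-220 and 155346 to 176009 in TEN-220. None of 14 markers of placenta, uterus and mammary gland was among the tested genes.

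**Figure D3:**
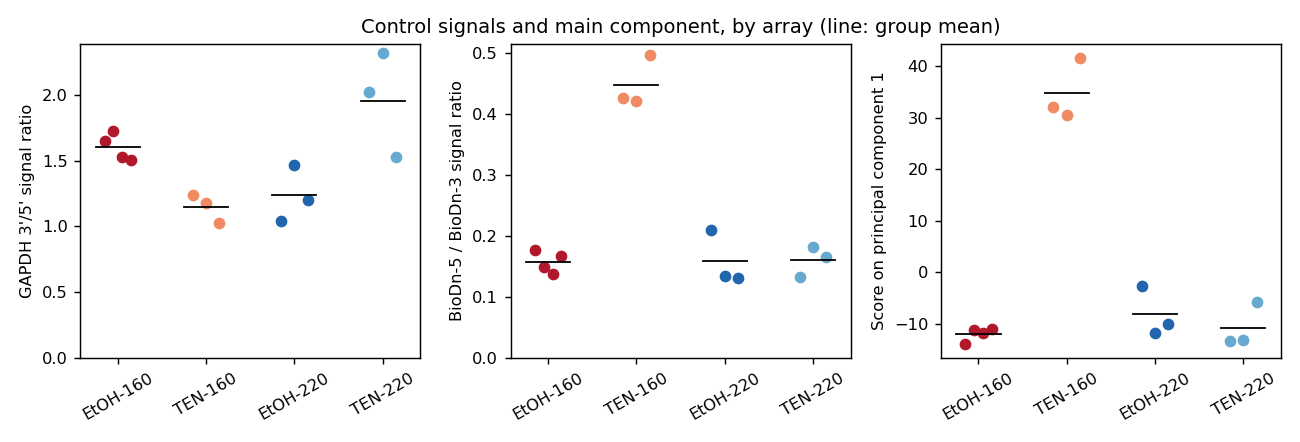
GAPDH 3'/5' signal ratio, BioDn-5 over BioDn-3 signal ratio and score on the first principal component for each of the 13 arrays (points) with group means (lines). EtOH-160 and TEN-220 have the higher GAPDH ratios, and TEN-160 alone has BioDn ratios above 0.422 and principal component scores of 30.5 to 41.6.

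TEN-160 was below the other groups for 4 genes of fatty acid synthesis. Fasn, fatty acid synthase, had signals of 3849.9, 7056, 4747 and 5689.9 in EtOH-160, 769.6, 1184 and 719 in TEN-160, 1938, 3296 and 6084 in EtOH-220, and 7865, 6549.6 and 4964 in TEN-220. TEN-160 lay far below all other arrays, and the EtOH-220 arrays spread widely and overlapped TEN-220. The ethanol effect was 2.58 at 160 kcal and -0.91 at 220 kcal, an interaction of 3.49 (SE 0.48, adjusted p = 0.00213). A second Fasn probe set gave 2.41 (adjusted p = 0.00482). Scd, the desaturase that makes monounsaturated fatty acids, had signals of 10913, 18715, 10408 and 14499 in EtOH-160, 5955, 5412 and 4982 in TEN-160, 8856, 9528 and 14332 in EtOH-220, and 17550, 16835 and 11551 in TEN-220, and an interaction of 1.78 (SE 0.33, adjusted p = 0.00783). Its other, much dimmer probe set gave -0.32 (adjusted p = 0.69). Acly, which splits citrate to acetyl-CoA in the cytosol, had signals of 6633, 19301, 13719.5 and 11329 in EtOH-160, 5749, 3995 and 5425 in TEN-160, 14901, 10767 and 12775 in EtOH-220, and 19546, 20854 and 13974 in TEN-220. TEN-160 was again below every other array, EtOH-160 spread over a wide range, and the interaction of 1.74 (SE 0.41, adjusted p = 0.0234) was lost without TEN-220 replicate 1, TEN-220 replicate 2 or TEN-160 replicate 2. Its other probe sets gave 0.99 and -0.40, neither called. Slc25a1, the mitochondrial citrate carrier that exports this citrate, had an interaction of 1.37 (SE 0.35, adjusted p = 0.0317) and lost its call when any of 6 arrays was left out.

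Of the 13 measured genes of the lipogenesis list, these 4 were called above 0 and 0 below, where 3.84% of all 3129 genes were called above 0. The list's median interaction was 1.05 on the log2 scale, beside -0.03 over all genes, and 10 of its 13 genes had positive values. The median was 0.42 with the values as deposited, 1.10 after quantile normalization and 1.35 with median centring. The first and last of these scalings shift all interactions alike, apart from values at the floor. With the GAPDH covariate the list's median was 0.48, and 7 of the 13 values were positive. Srebf1, the transcription factor that drives the pathway, was not called. Its signals were 531, 948, 629 and 1116 in EtOH-160, 361, 406 and 265 in TEN-160, 671, 1242 and 1504 in EtOH-220, and 963, 919.9 and 1071 in TEN-220, with TEN-160 below all other arrays, and its interaction of 1.05 (SE 0.43, adjusted p = 0.14) missed the threshold. Pnpla3, a lipase of lipid droplets that is induced by feeding, had another pattern, with geometric mean signals of 379 in EtOH-160, 350.0 in TEN-160, 1696 in EtOH-220, 4975 in TEN-220 and an uncalled interaction of 1.67 (adjusted p = 0.161); it was chosen for mention after its values were seen. Acat2, the first enzyme of cholesterol synthesis, was the 1 called gene of 15 in the cholesterol list, with an interaction of 1.26 (SE 0.33, adjusted p = 0.0318); its other probe set gave -0.33.

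Outside fatty acid synthesis, Pdpk1, Sdc4, Tkfc and Sirt2 were among the named genes with TEN-160 below the rest. Pdpk1, the kinase that activates Akt, had signals of 158, 176, 179 and 124 in EtOH-160, 9.4, 12.9 and 10.2 in TEN-160, 127, 148 and 128 in EtOH-220, and 175, 142 and 119 in TEN-220. All 3 TEN-160 arrays were below the background of 46.6, so the ratio of the ethanol folds was at least 3.63-fold higher at 160 kcal, and the fitted interaction of 3.98 (SE 0.38, adjusted p = 0.000235) is no bound. Akt1 had an interaction of 1.03 (SE 0.23, adjusted p = 0.0201), and a dimmer probe set gave 2.84. Sdc4, a heparan sulfate proteoglycan of the cell surface, had signals of 4539, 3662, 3744 and 4268 in EtOH-160, 1395, 1085 and 1158 in TEN-160, 3515, 3692 and 2904 in EtOH-220, and 3296, 3506 and 3517 in TEN-220. The TEN-160 arrays were well apart from a narrow range in the other 3 groups, with an interaction of 1.78 (SE 0.21, adjusted p = 0.00097); a second probe set was called at 1.40, and one near background gave -0.45. Tkfc, which phosphorylates glyceraldehyde from fructose, had an interaction of 1.80 (SE 0.22, adjusted p = 0.00157). Sirt2, an NAD-dependent deacetylase, had signals of 649, 430.4, 736 and 1015 in EtOH-160, 125, 134 and 95.9 in TEN-160, 602, 768 and 698 in EtOH-220, and 693, 623 and 855 in TEN-220 and an interaction of 2.59 (SE 0.36, adjusted p = 0.00215).

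Ormdl3, a regulator of sphingolipid synthesis in the endoplasmic reticulum, had an interaction of 1.47 and Copz1, a subunit of the vesicle coat, one of 1.28 (adjusted p = 0.00215 and 0.00281). Both had TEN-160 below the other groups. Igfbp3, the main plasma carrier of insulin-like growth factors, had signals of 611, 722, 674 and 498 in EtOH-160, 180, 189 and 227 in TEN-160, 502, 545 and 463 in EtOH-220, and 442, 620.4 and 514 in TEN-220 and an interaction of 1.70 (SE 0.26, adjusted p = 0.0032). A second Igfbp3 probe set had -0.34 and overlapping groups, so the array holds both readings of this gene. Cebpa and Nr2f6, transcription factors of the liver, had interactions of 0.87 and 0.91 (adjusted p = 0.0283 each), with TEN-160 apart below, and each lost its call on leaving out any 1 of 7 arrays. A dim second Cebpa probe set gave -1.16. Haao, an enzyme of tryptophan breakdown, had an interaction of 0.98 (SE 0.19, adjusted p = 0.00834); its other probe set gave 0.25. Afp, the fetal serum protein, was below background in TEN-160, with a ratio of folds at least 2.57-fold higher at 160 kcal, and its brighter probe set gave 0.98 (adjusted p = 0.194).

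TEN-160 was above the other groups, and the interaction below 0, for Ghr, Cyp2c12, Pzp, Cyb5a and Mbl2 among the named genes. Ghr, the growth hormone receptor, had signals of 303, 158, 239 and 263 in EtOH-160, 1625, 1016 and 1030.5 in TEN-160, 649.9, 291 and 270.2 in EtOH-220, and 284, 242 and 327 in TEN-220 at the called probe set. TEN-160 was above every other array, EtOH-160 was at the lower end, and the interaction of -2.75 (SE 0.45, adjusted p = 0.00401) was kept without any 1 array. The brighter Ghr probe sets gave -0.69 and -0.46 and were not called. Igf1, the growth factor that the receptor induces, was not called at any of its probe sets, with an interaction of -1.41 (adjusted p = 0.0629) at one and of 0.20 at the brightest. Cyp2c12, a P450 of female rat liver that depends on growth hormone, had signals of 10054, 8732, 7917 and 9842 in EtOH-160, 19401, 18833 and 16163 in TEN-160, 11721, 9933 and 8919 in EtOH-220, and 8817, 8729.5 and 10565 in TEN-220. TEN-160 lay above the other arrays, with an interaction of -1.11 (SE 0.20, adjusted p = 0.00783), and its second probe set was called at -1.52. Cyp2c6v1, a gene of similar sequence, so that their probe sets may share signal, had -0.95 (adjusted p = 0.0229).

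Pzp, a large plasma protease inhibitor of the macroglobulin family, had signals of 267, 122, 217 and 177 in EtOH-160, 1312, 1474 and 765 in TEN-160, 543, 218 and 246 in EtOH-220, and 156, 133 and 195 in TEN-220, and an interaction of -3.54 (SE 0.50, adjusted p = 0.00215). TEN-160 was above the other groups, and EtOH-220 replicate 1 came closest to it. The brightest Pzp probe set gave -0.67 (adjusted p = 0.0461), called in the full set but lost when any of 12 arrays was left out. Cyb5a, cytochrome b5, an electron donor to desaturases and P450 enzymes, had signals of 4493, 4158, 3526 and 3381 in EtOH-160, 10812, 12815 and 12715 in TEN-160, 7070.4, 4855 and 2729 in EtOH-220, and 2059, 2721 and 1789.8 in TEN-220. TEN-160 was high and TEN-220 low, with the other groups between, and the interaction was -2.72 (SE 0.37, adjusted p = 0.00213). Its other probe sets gave -0.95 and -0.41, neither called. Mbl2, a lectin that starts the complement cascade, had signals of 492, 300, 344 and 470.5 in EtOH-160, 1040.4, 1257 and 869 in TEN-160, 754, 545 and 509 in EtOH-220, and 369, 397 and 324 in TEN-220. Its interaction was -2.12 (SE 0.31, adjusted p = 0.00269), while a brighter probe set gave -0.21.

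Several less familiar genes had the same form. Evi5, a regulator of Rab GTPases, had signals of 54.3, 81.6, 64.1 and 80.8 in EtOH-160, 489.9, 323 and 295 in TEN-160, 62.7, 65.4 and 81 in EtOH-220, and 48.9, 66.1 and 77.7 in TEN-220 and an interaction of -2.51 (SE 0.40, adjusted p = 0.0034), with the 10 other arrays within a narrow range. Eif3m, a translation initiation factor subunit, had -1.97 and Pdcd10, a protein of vascular and Golgi signalling, -1.89 (adjusted p = 0.0039 each). Spp2, a secreted phosphoprotein, had -1.21 (adjusted p = 0.00401), and its 2 brighter probe sets gave -0.53 and -0.37 without a call. Serpina7, the thyroxine-binding globulin, had signals of 197, 246, 349 and 767 in EtOH-160, 1239, 1803 and 804 in TEN-160, 459.7, 423 and 268 in EtOH-220, and 127, 261 and 278 in TEN-220 and an interaction of -2.68 (SE 0.63, adjusted p = 0.0214), which was lost on leaving out the first TEN-220 or the first EtOH-220 array. Ribosomal protein genes were called in both directions, 3 above 0 and 3 below among 40 measured (median 0.05), beside 3.84% above and 2.72% below over all genes. All 6 had TEN-160 apart, as did 57.4% of all calls. Rpl17 had 1.37 and Rps24 0.98, whereas Rpl41 had -1.16 and Rps6 -0.81. The largest values on the array belonged to probe sets that match several genes, -9.38 and -8.48, with TEN-160 above the rest, and they are not named here.

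**Figure D4:**
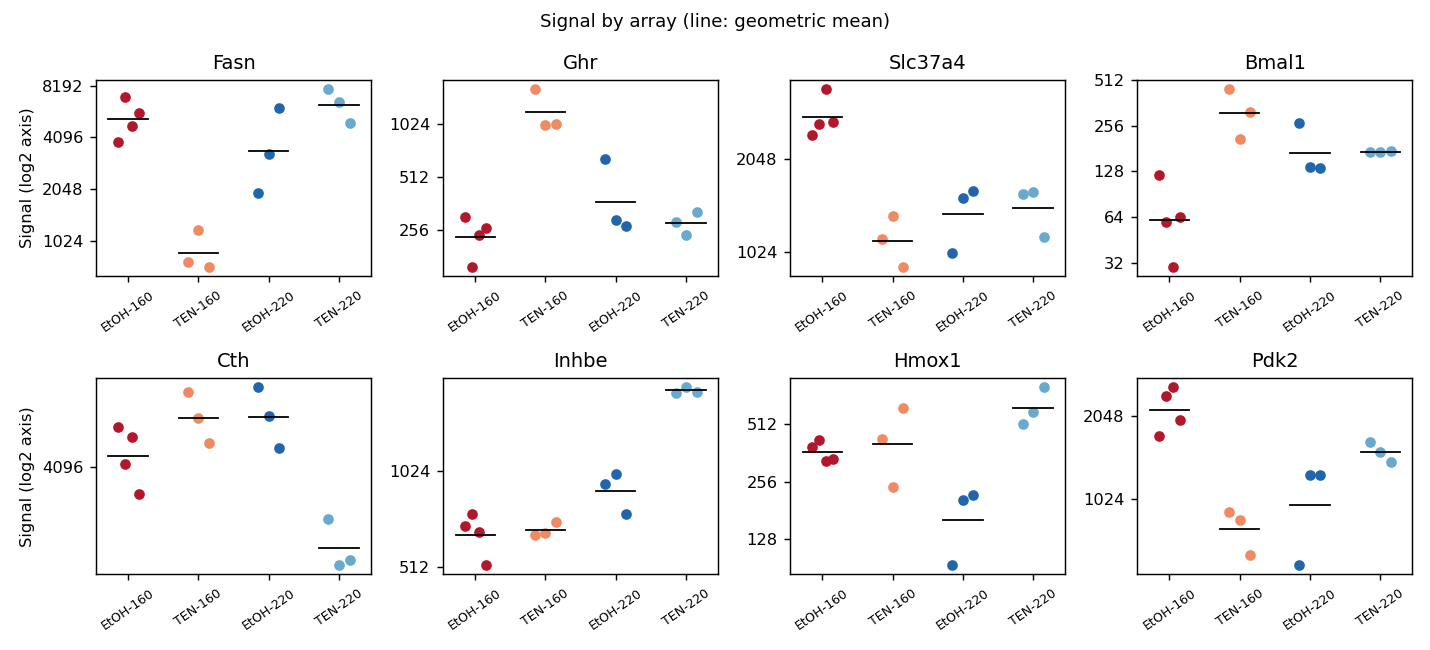
Signal on a log2 axis for each of the 13 arrays (points) with geometric means (lines), for 8 called genes. Fasn is low and Ghr high in TEN-160, Slc37a4 is high and Bmal1 low in EtOH-160, Cth is low and Inhbe high in TEN-220, Hmox1 is low in EtOH-220, and Pdk2 is higher in EtOH-160 and TEN-220 than in TEN-160 and EtOH-220.

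EtOH-160, the undernourished rats with ethanol, stood apart for 13 calls, 5 above the other groups (a form that 0.686% of all tested probe sets had) and 8 below (0.629% of all tested), of which 9 name 1 gene. Those above were Slc37a4, Gnmt and Gls2, all enzymes or carriers of glucose and amino acid metabolism. Slc37a4, which carries glucose 6-phosphate into the endoplasmic reticulum as the last stage of glucose release, had signals of 2456, 2659.7, 3468 and 2712 in EtOH-160, 1127, 1341 and 917 in TEN-160, 1019, 1536 and 1613 in EtOH-220, and 1583, 1599.7 and 1146 in TEN-220. The other 3 groups overlapped, and the interaction was 1.40 (SE 0.30, adjusted p = 0.0159). The second, brighter probe set gave 1.77 (adjusted p = 0.0034), and there EtOH-160 was above and TEN-160 below every other array, so no group stood apart. With the GAPDH covariate the interactions were 0.44 and 0.76. Gnmt, which disposes of excess S-adenosylmethionine, had signals of 3440, 5705, 7919 and 4176 in EtOH-160, 1613, 1952 and 1586 in TEN-160, 2237, 2628 and 2327 in EtOH-220, and 2339, 2009.7 and 2269.9 in TEN-220 and an interaction of 1.44 (SE 0.33, adjusted p = 0.0201). Other Gnmt probe sets gave 0.83 and 0.77, not called. Gls2, the liver glutaminase, had signals of 1203, 1579, 2224 and 1369.8 in EtOH-160, 661, 542 and 673 in TEN-160, 531, 994 and 1008 in EtOH-220, and 947, 800.3 and 789.9 in TEN-220 and an interaction of 1.37 (SE 0.36, adjusted p = 0.0319). Gls2 and Gnmt lost their calls without TEN-220 replicate 1, and Gls2 also without any 1 of 5 other arrays.

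Sds and Nr1d1 are shown because EtOH-160 stood apart there as well without a call; they were chosen after their values were seen. Sds, the serine dehydratase that feeds gluconeogenesis and responds to glucagon, had signals of 786, 4932, 6163 and 4607 in EtOH-160, 166, 148 and 175 in TEN-160, 193, 344 and 154 in EtOH-220, and 35, 21.7 and 113 in TEN-220. The ethanol effect was 4.32 at 160 kcal and 2.30 at 220 kcal, but TEN-220 averaged 44.1, under the background of 46.6, and the effect at 220 kcal was not called (adjusted p = 0.295). The interaction of 2.02 (SE 0.93, adjusted p = 0.194) did not pass, and a second probe set gave 1.60 with an ethanol effect of 0.42 at 220 kcal. EtOH-160 replicate 1 was lower than the other 3 of its group at Sds and also at Nr1d1 and Dbp, described with the clock genes.

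At the called probe set, the genes below the rest in EtOH-160 were Azgp1, Hspa5, Hsp90b1, Atp6v1d, Mapk9 and Bmal1. Azgp1, a secreted lipid-mobilising glycoprotein, had signals of 537, 458, 415 and 553 in EtOH-160, 938, 1464 and 1142 in TEN-160, 792, 845 and 830.2 in EtOH-220, and 717, 676 and 883 in TEN-220, and an interaction of -1.38 (SE 0.26, adjusted p = 0.00797); its brighter probe sets gave -0.46 and -0.27. Atp6v1d, a subunit of the lysosomal proton pump, had -1.25 (SE 0.28, adjusted p = 0.0201). Mapk9, a stress-activated kinase, had -1.08 (adjusted p = 0.0409), and it was named, like Hsp90b1, after its values were seen. Hspa5 and Hsp90b1 are chaperones of the endoplasmic reticulum. Hspa5 had signals of 882, 795, 1000.4 and 748 in EtOH-160, 3303, 2599.5 and 3108 in TEN-160, 2831, 1298 and 1105 in EtOH-220, and 1589.5, 1674 and 1944 in TEN-220. EtOH-160 was below every other array and TEN-160 high, and the interaction of -1.70 (SE 0.37, adjusted p = 0.0172) was lost without TEN-220 replicate 1. The brighter Hspa5 probe set also had EtOH-160 below every other array, with an interaction of -0.28 (adjusted p = 0.45). Hsp90b1 had signals of 1122, 932, 1048 and 1074 in EtOH-160, 2287, 3034 and 2405 in TEN-160, 3404, 1513 and 1546 in EtOH-220, and 1919, 2069 and 1994 in TEN-220 and an interaction of -1.30 (SE 0.34, adjusted p = 0.0339). Its other probe sets gave -1.42 and -0.09, not called, and at neither was EtOH-160 below the rest. At the one with -0.09 the geometric means were 2304 in EtOH-160, 1574 in TEN-160, 3804 in EtOH-220 and 2450 in TEN-220.

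Canx, a lectin chaperone of the same compartment, had TEN-160 above the rest, with signals of 2043, 2200.2, 1995 and 1645 in EtOH-160, 4579, 4482 and 3953 in TEN-160, 2726, 2243 and 1664 in EtOH-220, and 1529, 2357 and 2082 in TEN-220 and an interaction of -1.29 (SE 0.28, adjusted p = 0.0159); a dimmer probe set was called at -1.86, and further ones gave -0.73 and -0.42. Genes of this compartment are induced together through the endoplasmic reticulum stress element, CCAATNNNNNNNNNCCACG, to which the factor ATF6 binds with NF-Y. The promoters of Hspa5 and Canx are printed because both hold these letters, searched on both strands from 250 bases before to 50 after the start, a motif added after the data were seen; 22 of 33469 rat promoters (0.0657%) hold it. The sequences are from RefSeq on GRCr8, 5′ to 3′ on the gene's strand, and capitals mark the element's fixed bases and TGACG, the core of the cAMP response element, which 21.2% of promoters hold; in Canx they also mark CACGTG, the E-box, in 6.42% of promoters, which overlaps a TGACG.
Hspa5, chr3:38452766-38453065, plus strand: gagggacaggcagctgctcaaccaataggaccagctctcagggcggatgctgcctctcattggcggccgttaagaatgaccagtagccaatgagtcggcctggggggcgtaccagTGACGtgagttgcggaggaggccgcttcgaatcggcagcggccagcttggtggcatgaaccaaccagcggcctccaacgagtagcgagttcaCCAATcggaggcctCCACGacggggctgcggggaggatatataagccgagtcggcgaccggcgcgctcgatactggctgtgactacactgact
Canx, chr10:35157808-35158107, minus strand: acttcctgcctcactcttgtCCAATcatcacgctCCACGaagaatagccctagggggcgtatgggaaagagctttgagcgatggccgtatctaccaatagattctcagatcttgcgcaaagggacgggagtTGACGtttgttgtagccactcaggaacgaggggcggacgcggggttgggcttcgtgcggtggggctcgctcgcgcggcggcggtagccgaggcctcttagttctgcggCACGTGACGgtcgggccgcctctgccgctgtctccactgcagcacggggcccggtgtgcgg
Each gene entered the endoplasmic reticulum stress list by its brightest probe set. Of 14 measured genes 1, Canx, was called below 0 and 0 above, beside 2.72% of all genes below. The called probe sets of Hspa5 and Hsp90b1 are not the brightest of their genes and do not count here. The list's median of -0.09 turned positive with median centring (0.21) and with the GAPDH covariate (0.07).

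Bmal1, an activator of the circadian clock, had signals of 121, 59.7, 30 and 64 in EtOH-160, 449, 209.5 and 313 in TEN-160, 268, 136 and 135 in EtOH-220, and 172, 172 and 173 in TEN-220 at the called probe set. EtOH-160 was lowest, TEN-160 and EtOH-220 overlapped, and TEN-220 hardly varied. The interaction of -2.32 (SE 0.59, adjusted p = 0.0296) was lost on leaving out any 1 of 5 arrays, and a second probe set gave -1.27 (adjusted p = 0.466), where EtOH-160 replicate 3 was at 14.9. The Bmal1 promoter is printed because the nuclear receptors ROR and REV-ERB act on it through AGGTCA, in capitals, which starts 15 bases before the start here and is found in 16.2% of promoters.
Bmal1, chr1:176766078-176766377, plus strand: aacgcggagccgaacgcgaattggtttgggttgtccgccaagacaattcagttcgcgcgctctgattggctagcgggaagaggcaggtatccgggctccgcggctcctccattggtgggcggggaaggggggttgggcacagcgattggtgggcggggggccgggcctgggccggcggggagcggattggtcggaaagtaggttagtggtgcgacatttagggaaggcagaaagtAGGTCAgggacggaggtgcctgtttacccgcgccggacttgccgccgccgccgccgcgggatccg
Nr1d1, which encodes REV-ERB alpha, had signals of 182, 409, 869 and 718 in EtOH-160, 35.9, 143 and 53.6 in TEN-160, 16.9, 37.6 and 30.8 in EtOH-220, and 26.7, 10 and 26 in TEN-220 at its dimmer probe set. EtOH-160 lay above the other arrays, all arrays of EtOH-220 and TEN-220 were below background, so that the size of the interaction is not given, and it was not called (adjusted p = 0.109). The brighter probe set had signals of 358 to 1032 in EtOH-160, 303 to 342 in TEN-160, 151 to 265 in EtOH-220 and 175 to 204 in TEN-220, and its interaction of 0.87 (adjusted p = 0.246) was not called. Dbp, a clock output factor named after its values were seen, had 39.4, 773, 1206 and 985 in EtOH-160, 47.6, 60.9 and 27.9 in TEN-160, 23.7, 27.7 and 33.9 in EtOH-220, and 39.1, 74.8 and 29.5 in TEN-220. Replicate 1 of EtOH-160 lay among the arrays of the other groups, every EtOH-220 array was below background, and the interaction was not called (adjusted p = 0.0782). The sources used here do not give the hour at which liver was taken.

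TEN-220, the normally fed controls, stood apart for 14 calls, 9 below (a form that 0.763% of all tested probe sets had) and 5 above (0.801% of all tested). For those that name 1 gene the ethanol effect was larger in size at 220 kcal than at 160 kcal. At 220 kcal by itself it was called for none of them, with Inhbe the closest (adjusted p = 0.0575). Cth, which makes cysteine from cystathionine, had signals of 5115, 4164, 4829.6 and 3543 in EtOH-160, 6187, 5361 and 4678 in TEN-160, 6361, 5428 and 4561 in EtOH-220, and 3086, 2394 and 2470.3 in TEN-220. The other 3 groups overlapped, with an ethanol effect of 1.04 at 220 kcal and -0.30 at 160 kcal, and the interaction was -1.33 (SE 0.25, adjusted p = 0.00797). The second probe set had the same form and gave -0.92 (adjusted p = 0.0902). Apob, the structural protein of very low density lipoproteins, had signals of 1292, 706, 1744 and 1268 in EtOH-160, 1279, 1835 and 1705 in TEN-160, 1856, 1308 and 2026 in EtOH-220, and 468, 173 and 649 in TEN-220 and an interaction of -2.60 (SE 0.56, adjusted p = 0.0159). It differed among its probe sets: a second was called at -2.41, and the brightest gave -0.96 with overlapping groups. With the GAPDH covariate the first was -0.087. Map3k12, a kinase upstream of JNK, had 160.4, 129, 163 and 109.8 in EtOH-160, 156, 152 and 105 in TEN-160, 167, 153 and 231 in EtOH-220, and 34.2, 81.4 and 38.6 in TEN-220, with an interaction of -1.89 (SE 0.45, adjusted p = 0.0245).

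Hlf, a clock-controlled factor of the same family as Dbp, had signals of 113, 103, 126 and 109 in EtOH-160, 151, 150.2 and 188 in TEN-160, 116, 157 and 149.5 in EtOH-220, and 71, 62.1 and 96 in TEN-220 and an interaction of -1.42 (SE 0.33, adjusted p = 0.0202), lost without TEN-220 replicate 1 or 2. With each gene by its brightest probe set, it was the 1 called gene of 7 in the circadian list, beside 2.72% of all genes called below 0. The called Bmal1 probe set is not the brightest of that gene and does not count there. Ndufs1, a subunit of respiratory complex I, had -1.42, and Adh4, a class II alcohol dehydrogenase, -1.26 (adjusted p = 0.0328 and 0.0337), calls lost without any 1 of 9 and 8 arrays. Stx1a and Hao2, named after their values were seen, had -2.05 and -1.89. Above the rest in TEN-220 was Inhbe, a liver-secreted inhibin subunit, with signals of 686, 748, 660.3 and 519 in EtOH-160, 645, 653 and 708 in TEN-160, 932, 1000.3 and 752 in EtOH-220, and 1794, 1870.5 and 1809 in TEN-220. TEN-220 was nearly level over its arrays and EtOH-220 lay between it and the undernourished groups; the interaction of 0.99 (SE 0.23, adjusted p = 0.0203) was lost without TEN-220 replicate 1 or 2. Tnfrsf1a, a receptor for tumour necrosis factor, had signals of 1005, 1156, 900 and 945 in EtOH-160, 770, 727 and 398 in TEN-160, 860, 1318 and 895 in EtOH-220, and 1429, 1903 and 1787 in TEN-220 and an interaction of 1.47 (SE 0.34, adjusted p = 0.0201). Slc26a1, a sulfate carrier, and Sgk2, a protein kinase, had 0.82 and 0.81 (adjusted p = 0.0349 and 0.0403) and lost their calls without any 1 of 9 and 10 arrays. Sec31a, named after its values were seen, had 1.53.

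EtOH-220 stood apart for 2 calls, both below the rest, a form that 0.439% of all tested probe sets had. For 0 calls did it lie above the rest, against 0.267% of all tested. Hmox1, the inducible heme oxygenase, had signals of 388, 421, 327 and 335 in EtOH-160, 429.7, 242 and 622 in TEN-160, 93.5, 205 and 217 in EtOH-220, and 512, 591 and 800.3 in TEN-220. The ethanol effect was -1.95 at 220 kcal (not called, adjusted p = 0.0671) and -0.13 at 160 kcal. The interaction of 1.82 (SE 0.48, adjusted p = 0.0337) was lost on leaving out any 1 of 8 arrays. A brighter probe set had 1304, 1438, 1123 and 1257 in EtOH-160, 1030.3, 526 and 1528 in TEN-160, 590.1, 806 and 622 in EtOH-220, and 1315, 1839.9 and 2093 in TEN-220, where TEN-160 replicate 2 fell below the EtOH-220 arrays, and gave 1.81 (adjusted p = 0.0203). Prkab1, a subunit of the energy sensor AMPK, had signals of 644, 525, 737 and 656 in EtOH-160, 582, 551 and 446 in TEN-160, 339, 442 and 435 in EtOH-220, and 579, 721 and 745 in TEN-220 and an interaction of 1.03 (SE 0.26, adjusted p = 0.0278), lost on leaving out any 1 of 4 arrays. Sod2, the mitochondrial superoxide dismutase, went the other way within the oxidative stress list of 18 measured genes, with TEN-220 low and an interaction of -1.12 (SE 0.26, adjusted p = 0.0218).

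In the crossed pattern, EtOH-160 and TEN-220 were on one side and TEN-160 and EtOH-220 on the other, as in the GAPDH ratio. Of 22 such calls 15 name 1 gene. Pdk2, which restrains pyruvate oxidation, had signals of 1729, 2435, 2619 and 1985 in EtOH-160, 918, 857 and 639 in TEN-160, 586, 1256 and 1253 in EtOH-220, and 1647, 1514 and 1399.7 in TEN-220. The ethanol effect was 1.44 at 160 kcal and -0.64 at 220 kcal, an interaction of 2.08 (SE 0.37, adjusted p = 0.006), and a second probe set was called as well. Cebpb, a transcription factor of gluconeogenesis and the acute phase, had 302, 361, 323 and 389 in EtOH-160, 128, 192 and 72.1 in TEN-160, 165, 246 and 248 in EtOH-220, and 550.3, 341 and 416 in TEN-220 at one crossed probe set (interaction 2.48, adjusted p = 0.00516). Its brighter probe set had 1213, 1377, 1378 and 1373 in EtOH-160, 911, 789 and 801 in TEN-160, 1333, 1152 and 1019 in EtOH-220, and 2032, 2148 and 1768 in TEN-220, where TEN-220 was highest and TEN-160 lowest, and an interaction of 1.45 (SE 0.21, adjusted p = 0.00219).

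Aldh2, the mitochondrial enzyme that clears acetaldehyde, had signals of 4432, 5023, 4398 and 4725 in EtOH-160, 3312, 3332 and 3249.5 in TEN-160, 2258, 4330.2 and 4373 in EtOH-220, and 5006, 4519 and 5851 in TEN-220. EtOH-220 replicate 1 was lowest, and the interaction of 1.04 (SE 0.29, adjusted p = 0.044) was lost on leaving out any 1 of 10 arrays. Ptpn21, a tyrosine phosphatase, had signals of 538, 452, 545 and 518 in EtOH-160, 235, 232 and 181 in TEN-160, 357, 405 and 354 in EtOH-220, and 548, 502 and 542 in TEN-220 and an interaction of 1.77 (SE 0.22, adjusted p = 0.00157), kept without any 1 array. Ubxn1, a ubiquitin-binding adaptor, had 1.85 and Man2b1, a lysosomal mannosidase, 1.30 (adjusted p = 0.00218 and 0.00481); a dimmer Man2b1 probe set gave -0.16. Slc6a9, a glycine transporter, had 2.17, and Cd36, the fatty acid translocase, -2.17 (adjusted p = 0.00797 and 0.0375); both were named after their values were seen. Mbl2, described above, and Pdlim5, a cytoskeletal adaptor with -2.26, were crossed in the other direction.

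Other calls without a group apart graded over several groups. Oaz2, an inhibitor of polyamine synthesis, had signals of 9875, 8289, 11480 and 12629.8 in EtOH-160, 19307, 16660.1 and 28075 in TEN-160, 15979, 12169 and 10385 in EtOH-220, and 7233, 5454 and 5091 in TEN-220. TEN-160 was highest and TEN-220 lowest, and the interaction was -2.11 (SE 0.31, adjusted p = 0.00269). Kctd13 had 206, 475, 351 and 396 in EtOH-160, 3563, 4579 and 6100.1 in TEN-160, 3759.8, 380.1 and 951 in EtOH-220, and 249, 303 and 167 in TEN-220 at the probe set with the largest interaction among those that name 1 gene, -6.01 (adjusted p = 0.00213). EtOH-220 replicate 1 was as high as TEN-160, and 2 other Kctd13 probe sets gave -0.17 and -0.02, so the called one is not matched by them. Igfbp1, a fasting-induced carrier of insulin-like growth factors, had 429, 817, 1133 and 1138 in EtOH-160, 1470, 1382 and 2448 in TEN-160, 851, 1463 and 275 in EtOH-220, and 82.3, 289 and 289 in TEN-220. TEN-220 was low and TEN-160 high, and EtOH-220 held 1 array in the range of each, and the interaction of -2.94 (SE 0.80, adjusted p = 0.0397) was lost on leaving out any 1 of 9 arrays. Ttpa, the vitamin E transfer protein, had -1.37 (adjusted p = 0.00886).

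Pathway lists of glucose production and amino acid breakdown were read against 3.84% called above 0 and 2.72% below over all 3129 genes; the difference from that share was not tested. The gluconeogenesis and fasting list had 5 of 23 measured genes called above 0 and 2 below, and its median interaction was 0.55. Those above were Slc37a4, Pdk2, Gpt, Cebpa and Cebpb, and those below were Igfbp1 and Gk, the glycerol kinase (-1.99, adjusted p = 0.0448; named after its values were seen). Gpt, alanine aminotransferase, had signals of 1290.4, 1556, 1934 and 1199.5 in EtOH-160, 381, 380.3 and 264 in TEN-160, 793, 1042 and 1218 in EtOH-220, and 982, 794 and 426 in TEN-220 and an interaction of 1.59 (SE 0.40, adjusted p = 0.0283). Pck1, the rate-limiting enzyme of gluconeogenesis, was not called. Its signals of 1431, 2965, 4848 and 4465 in EtOH-160, 2637, 2141 and 4336 in TEN-160, 1485, 3108 and 909.7 in EtOH-220, and 209, 462 and 1448 in TEN-220 spread widely within every group, with an interaction of -1.54 (SE 0.86, adjusted p = 0.281). The urea cycle and amino acid list had 3 of 30 called above 0 (Haao, Gpt and Gls2) and 0 below, with a median of 0.35 and 24 positive values. The methionine cycle list had 2 of 15 above 0, with 8 positive values and a median of 0.0054. They were Gnmt and Gamt, the enzyme of creatine synthesis (0.80, adjusted p = 0.0448, lost without any 1 of 10 arrays). The called Cth probe set is not the brightest of its gene and does not count in this list. Liver-enriched transcription factors had 3 of 24 above 0 (Cebpb, Nr2f6 and Cebpa) and 0 below, with a median of 0.34. With the values as deposited, which shift the median of all tested probe sets to -0.71, the medians of these 4 lists were -0.08, -0.29, -0.63 and -0.30. Under quantile normalization they stayed positive. Median centring raises all interactions alike, so the medians could not turn there. With the GAPDH covariate the gluconeogenesis median was 0.50, the amino acid one 0.09 with 17 of 30 values positive, the methionine one 0.31 and that of the transcription factors 0.46, with 0 calls; Gpt then had 0.13 and Gamt 0.038.

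Among 11 measured genes of ethanol and acetaldehyde oxidation, Aldh2 was called above 0 and Adh4 below, beside 3.84% and 2.72% of all genes. The list median of -0.01 became 0.28 with median centring. Adh1c, the main alcohol dehydrogenase, had signals of 13648, 14534, 14632 and 13108 in EtOH-160, 12529, 15459 and 14056 in TEN-160, 20405, 15132 and 18209 in EtOH-220, and 24701, 20014 and 26008 in TEN-220. TEN-220 was high together with EtOH-220 replicate 1, the groups at 160 kcal overlapped, and the interaction was 0.40 (SE 0.20, adjusted p = 0.238). A second Adh1c probe set gave -0.15, not called. Cyp2e1 was not called at any of its probe sets, with interactions of 0.39, 0.26 and 0.11. Cat, catalase, had -1.33 (adjusted p = 0.165) with TEN-160 replicate 3 far below the other TEN-160 arrays, and a second probe set gave -0.53, not called. Aldh1a1 had 1.03 (adjusted p = 0.0975) with TEN-160 below the rest.

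For fatty acid oxidation and the targets of PPAR-alpha, 0 of 29 genes were called by limma, and the median interaction was 0.06. It was -0.11 with the GAPDH covariate and -0.0013 after quantile normalization. Beside this count and those of the further lists below, 3.84% of all 3129 genes were called above 0 and 2.72% below. Differences from that share were not tested. Cyp4a1, the fatty acid omega-hydroxylase, had signals of 2591, 3048, 2708 and 3339.6 in EtOH-160, 972, 1620.3 and 1063 in TEN-160, 1577, 1799 and 2022 in EtOH-220, and 1216, 1441 and 1343 in TEN-220. EtOH-160 was above all other arrays, with an ethanol effect of 1.29 at 160 kcal and 0.43 at 220 kcal, and an interaction of 0.86 (SE 0.26, adjusted p = 0.061). Other Cyp4a1 probe sets gave 0.99 and 0.07, neither called. Cpt1a, the entry step of mitochondrial oxidation, had 848, 926, 2316 and 846 in EtOH-160, 2117, 3043 and 2782 in TEN-160, 852, 602 and 668 in EtOH-220, and 550.3, 766 and 656 in TEN-220, with TEN-160 high, EtOH-160 replicate 3 far above its group and an interaction of -1.34 (SE 0.44, adjusted p = 0.0804). The P450 list had 0 of 23 above 0 and 2 below, Cyp2c12 and Cyp2c6v1. Conjugation enzymes and bile acid genes had 0 of 22 and 0 of 17 called. Cyp7a1, the rate-limiting enzyme of bile acid synthesis, had -1.15 (adjusted p = 0.277), and TEN-220 replicate 1 set much of it, since the value was -0.48 without it. Oxidative phosphorylation had 1 of 27 called above 0, Cox5a with 1.10 (lost without any 1 of 7 arrays), and 2 below, Ndufs1 and Uqcrc2 with -1.41. The acute phase list had 0 of 25 above 0 and 1 below, Pzp.

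In the growth hormone, insulin and IGF axis, 3 of 29 measured genes were called above 0 (Pdpk1, Igfbp3 and Akt1) and 1 below, Igfbp1, with a median of 0.05. Over all genes 3.84% were called above 0 and 2.72% below, and no difference from that share was tested for these lists. The called probe sets of Ghr, and in the next list those of Apob and Afp, are not the brightest of their genes and do not count. The 17 plasma carriers and fetal liver proteins held 1 call below 0, Serpina7, and the 15 cell cycle genes 1, Ccne1, a cyclin of the entry into DNA synthesis (-1.33, adjusted p = 0.0413; lost without any 1 of 10 arrays and -0.24 with the GAPDH covariate). Heat shock proteins (11 measured), interferon response genes (14), cytoskeletal genes (22) and immediate early genes (21) had 0 calls in either direction, with medians of 0.06, 0.00, -0.08 and 0.12; the cytoskeletal median was 0.22 with median centring, and with the GAPDH covariate the heat shock and interferon medians were -0.29 and -0.02. With the values as deposited, which leave TEN-220 replicate 1 unscaled and shift the median of all tested probe sets to -0.71, the medians of all pathway and cell type lists but lipogenesis were below 0.

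Further calls were lost when certain single arrays were left out and kept without the others. Those of Rpl17, Rps24, Map3k12, Afp and RT1-Ba were lost without any 1 of 3 arrays, and those of Gpt and Acat2 without any 1 of 4 and 6. Sod2, Cyp2c6v1 and Rps6 lost theirs without any 1 of 2 arrays. Atp6v1d, Akt1 and Uqcrc2 lost theirs without TEN-220 replicate 1, and Tnfrsf1a and the brighter Hmox1 probe set without TEN-220 replicate 2.

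**Figure D5:**
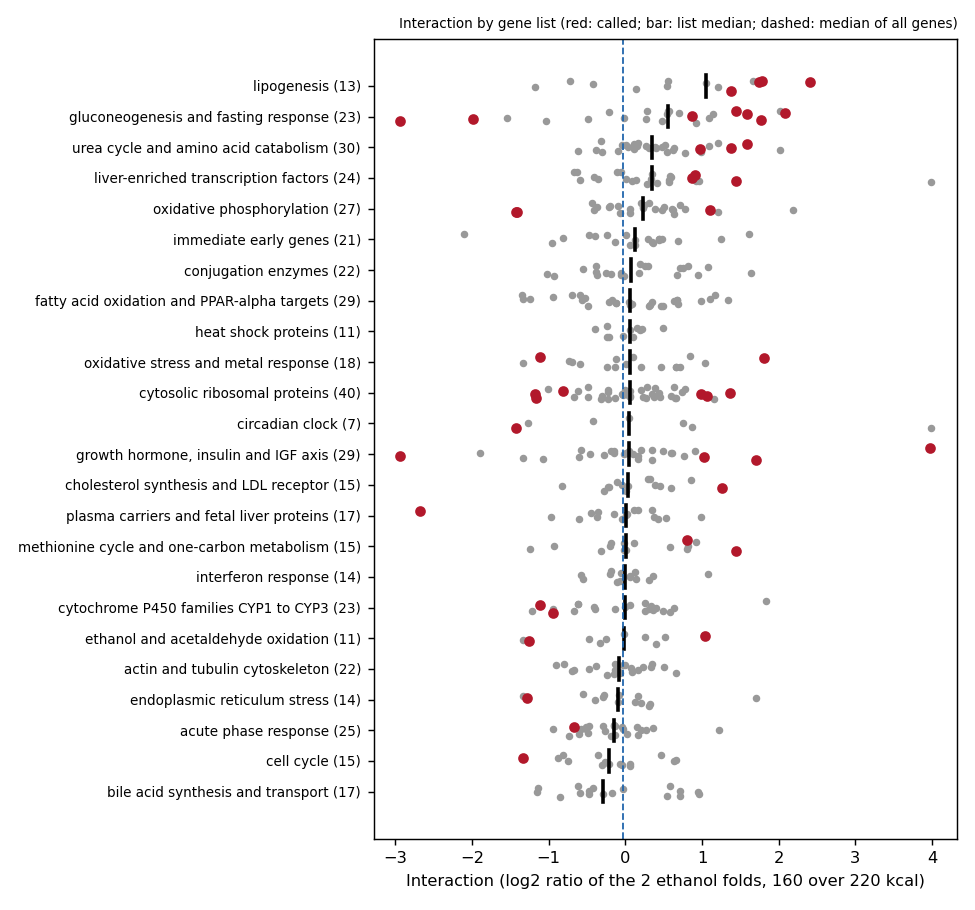
Interaction on the log2 scale (horizontal axis) of the measured genes of 24 pathway lists, each gene by its brightest probe set, with list medians (black bars), called genes in red, the number measured in brackets and the median of all genes, -0.03, as a dashed line. Lipogenesis has the highest median, 1.05, and bile acid synthesis and transport the lowest, -0.30, which was 0.00 with median centring.

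Of the 12 cell type lists with measured markers 2 held an interaction call. Over all genes 3.84% were called above 0 and 2.72% below, so with few markers per list, 0 or 1 call says little about a cell type. In whole liver fewer cells of a type and less RNA per cell cannot be told apart. List medians were nonetheless below that of all genes (-0.03) for several types, at -0.56 for erythroid cells (0 of 5 positive), -0.41 for cholangiocytes (1 of 5), -0.41 for lymphocytes (1 of 7), -0.33 for endothelial cells (2 of 8) and -0.27 for stellate cells (4 of 10). With the GAPDH covariate the erythroid and cholangiocyte medians were -0.61 and -0.36, while those of lymphocytes, endothelial and stellate cells were 0.24, 0.12 and 0.03. Of the 12 measured markers of Kupffer cells and macrophages 1 was called, RT1-Ba, a class II histocompatibility chain (-1.72, adjusted p = 0.0234), with a second probe set at -0.54. The summed signals of the 12 were 12631 to 14708 in EtOH-160, 14486 to 17433 in TEN-160, 12904 to 19362 in EtOH-220 and 15275 to 18048 in TEN-220. Of 12 periportal hepatocyte markers only Gls2 was called, and their summed signals were 60559 to 83137 in EtOH-160, 47823 to 49763 in TEN-160, 50706 to 53738 in EtOH-220 and 40996 to 50169 in TEN-220, so EtOH-160 was above the others without overlap. The 5 measured erythroid genes, hemoglobin among them, had 0 calls, with summed signals of 9176 to 16565 in EtOH-160, 14358 to 29599 in TEN-160, 17085 to 24384 in EtOH-220 and 14284 to 19747 in TEN-220. Of 9 neutrophil markers only S100a9 was measured, with signals of 12.6 to 84.1 in EtOH-160, 58.5 to 761 in TEN-160, 16.4 to 98.6 in EtOH-220 and 65.2 to 213 in TEN-220, and an uncalled interaction of -1.68 that was 0.090 with the GAPDH covariate. The markers of pericentral hepatocytes, stellate cells, endothelial cells, cholangiocytes, lymphocytes, pancreas and gut, and muscle and adipose tissue had 0 calls. The 7 hepatocyte genes, each by its brightest probe set, had 0 calls and a median interaction of -0.44. Of their values 0 were positive, against 3 after quantile normalization or median centring, and the median was 0.03 with the GAPDH covariate. The called Apob probe sets are not the brightest of that gene. The part of cell makeup in the results was not tested.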

How the data were processed

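The 13 deposited columns hold intensity values on a linear scale, which the authors made with MAS5, per the submitters' processing notes; its version and scaling target are not given in the sources used here. All columns were used (0 left out). The 2%-trimmed mean signal was about 501 on 12 arrays. TEN-220 replicate 1 was not at that level and was multiplied by 3.76 to reach it. Signals under the 10th percentile (9.4) were set to it and log2 was taken. The 59 control probe sets and the dimmest 40% of the other 8740 were left out, which left 5244, of which 4308 name 1 gene (4296 matched by Entrez ID to the GRCr8 gene table). Background was set at 46.6, the 95th percentile over 19 controls that carry no rat sequence.

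Group means were fitted with limma 3.58.1 in R 4.3.3 (lmFit, eBayes with trend, two-sided, Benjamini-Hochberg over all 5244), and probe sets were called at an adjusted p under 0.05. The procedure was tested on simulated data. Each gene entered a list by its brightest probe set. Levels are signals of 1 probe set and are not compared between genes. The number of arrays limits the precision. Tables were made with pandas 2.3.3 and plots with matplotlib 3.10.9 in Python 3.11.15.

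Named genes were, among calls naming 1 gene, the 10 smallest p-values in each direction, the 4 smallest for each group standing apart in each direction and for none, up to 4 called members of each of 24 pathway and 13 cell type lists, and 15 further genes called or not. The members and lists were chosen with earlier results of these data known. Replicate numbers did not pair the samples: deviations of same-numbered arrays correlated between -0.105 and 0.0911 over 18 pairs, with 0 above 0.1. Alternatives were other scalings, floors, filters, variance models, thresholds, a replicate block, 1 probe set per gene, fits to the groups compared alone, a GAPDH covariate and leaving out each array. Of 80 named genes 68 had a promoter sequence in the RefSeq table used.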

Additional observations from a re-analysis of the deposited data

Results flagged for a closer look

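The ethanol effect differed between 160 and 220 kcal, tested directly, in 194 probe sets above 0 and 210 below. The 20 genes listed here had the smallest p-values in their direction among calls naming 1 gene. Interactions (log2) above 0 were 3.98 for Pdpk1, 1.78 for Sdc4, 1.80 for Tkfc, 1.77 for Ptpn21 and 3.49 for Fasn. Further ones above 0 were 2.59 for Sirt2, 1.47 for Ormdl3, 1.85 for Ubxn1, 1.45 for Cebpb and 1.28 for Copz1. Those below 0 were -6.01 for Kctd13, -2.72 for Cyb5a, -3.54 for Pzp, -2.11 for Oaz2, -2.12 for Mbl2, -2.51 for Evi5, -1.97 for Eif3m, -1.89 for Pdcd10, -1.21 for Spp2 and -2.75 for Ghr.

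In EtOH-160, the 1 group of 4 arrays, 7 values of the named probe sets lay far from the other 3 of the group, as the gap to the nearest array divided by the group's range. Replicate 1 did so for Cebpb (0.971), Pdcd10 (0.924) and Akt1 (0.931), replicate 2 for Pdlim5 (0.915), replicate 3 for Cpt1a (0.910), and replicate 4 for Cat (0.910) and for a further Cyp4a1 probe set (0.847). With 95 probe sets examined and about 1 in 20 such groups by chance, 4.75 would be found by chance.

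The spiked control ratio BioDn-5 over BioDn-3, which no comparison uses, averaged 0.448 in TEN-160, above the 0.132 to 0.210 of the other arrays.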

How the results depend on the processing

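No value among the 74 called probe sets of named genes changed sign under any alternative, though with the GAPDH covariate 25 were smaller by over 1.5 times (Apob -2.60 and -0.087 with it, Gpt 1.59 and 0.13, Gamt 0.80 and 0.038, Rpl41 -1.16 and -0.24, Tnfrsf1a 1.47 and 0.44), and 36 kept their call without any 1 array; of the other 38, 35 were lost without the first TEN-220 array and 29 without the second. The interaction count of 404 was 146 to 368 when 1 array was left out, lowest without TEN-220 replicate 1 (198 without replicate 2 of that group, 263 without EtOH-220 replicate 1), 65 with the values as deposited, 196 with 1 probe set per gene, 0 with the GAPDH covariate (0.0721 the smallest adjusted p), 96 at an adjusted p under 0.01 and 749 under 0.1. The ethanol count at 160 kcal (1164) was 107, 650 and 227 in the first 3 of these settings and 529 under 0.01. The count of 1 at 220 kcal was 5 after quantile normalization, 2 after median centring, 58 as deposited, 2 with log2(signal + 32), 0 with no filter, 2 with the lowest 60% left out, 0 with no trend, 18 with array weights, 3 with 1 probe set per gene, 0 and 6 under 0.01 and 0.1, 0 with only those groups, and 0 to 11 without 1 array. TEN-160 stood apart for 23, 110, 0, 74 and 363 calls as deposited, with 1 probe set per gene, with the covariate, and under 0.01 and 0.1, and for 102 to 232 without 1 array. With the replicate block there were 314 interaction calls and 5 at 220 kcal. The covariate and each lost array also cost residual degrees of freedom. The GAPDH ratio follows the groups of the interaction, and with it as a covariate the median SE was 0.665 in place of 0.356. The cause of lost calls was not tested.

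Of all 404 calls 7 turned sign with the covariate and, of those each kept in the fit, 0 under any other alternative. Median centring and the values as deposited shift all interactions nearly alike, by less than the smallest call, and could not turn one. Among the named genes, signs turned only in those without a call. As deposited, Adh1c had -0.24, Cyp2e1 -0.24, -0.37 and -0.52, Igf1 -0.43 and the Cyp4a1 probe set with a main value of 0.07 had -0.57. With the covariate, Cyp7a1 had 0.73, Pck1 0.25, Igf1 -0.87 and 0.86, Cyp2e1 -0.046 and -0.14, and the second Adh1c probe set (-0.15 without it) 0.63. With median centring, the second Adh1c probe set had 0.15 and Igf1 0.28. Leaving out 1 array gave -0.023 to 0.38 and -0.25 to 0.16 at 2 Igf1 probe sets, -0.026 to 0.22 for Cyp2e1 and -0.27 to 0.34 for the same Cyp4a1 probe set. That Cyp4a1 probe set had -0.020 with array weights and -0.050 with the block.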
